A study of Mus musculus with 1470 samples.

Results

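The 9 genes described here encode signalling chains of the B cell antigen receptor, coreceptors and other B cell proteins: Cd79a, Cd79b, Ms4a1, Cr2, Fcer2a, Cd22, Blk, Bank1 and Pax5. They were chosen by symbol, and all 9 were found among the 14915 gene rows of the table. They were followed in single non-parenchymal cells of the liver (NPCs, all its cell types but hepatocytes) of 6 male wild-type C57BL/6J mice. Mice 1 to 3 of the normal diet (ND) group received chow, and mice 1 to 3 of the high-fat diet (HFD) group received a high-fat diet for weeks, begun in juvenile mice. The livers were perfused and digested with collagenase, and live cells were stained with an antibody panel and sorted singly for Smart-seq2, which reads whole transcripts. The 1470 cells comprised 718 from ND mice and 752 from HFD mice, and each mouse counts as 1 replicate.

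The antigen receptor of a B cell is a membrane immunoglobulin held by a heterodimer of CD79A and CD79B, whose cytoplasmic tails are phosphorylated by SRC family kinases such as BLK. BANK1 is an adaptor that binds kinases below the receptor. Coreceptors set the strength of the signal: CR2 (CD21) binds complement fragments and forms a complex with CD81, whereas CD22 binds sialic acids and recruits the phosphatase SHP-1. FCER2A (CD23) is the low-affinity IgE receptor, MS4A1 (CD20) is a membrane protein of mature B cells, and PAX5 is the transcription factor that holds B cell identity. Blood perfusing the liver carries mature B cells through the sinusoids.

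To give the region from which transcription starts, the bases before the annotated start were read for the members in the promoter table (RefSeq, GRCm38.p6), which held 6 of 9. Each promoter of that table spanned 250 bases before to 50 after the start, and 8 motifs were searched on both strands. The 3 promoters printed are those of the coreceptors or receptor chain with a match to a B cell-related motif near the start, and capitals mark that match. The 120 bases before the start of Cd79a were chr7:24897377-24897496 on the plus strand, those of Cd22 were chr7:30879029-30879148 on the minus strand, and those of Fcer2a were chr8:3690862-3690981 on the minus strand. For Cd22 and Fcer2a, which have several annotated transcripts, the start used is not the outermost one, and the gene reaches further upstream.
Cd79a: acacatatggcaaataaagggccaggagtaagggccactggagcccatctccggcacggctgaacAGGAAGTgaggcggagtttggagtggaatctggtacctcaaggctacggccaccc
Cd22: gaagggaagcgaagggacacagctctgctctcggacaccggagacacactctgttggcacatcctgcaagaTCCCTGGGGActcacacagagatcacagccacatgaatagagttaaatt
Fcer2a: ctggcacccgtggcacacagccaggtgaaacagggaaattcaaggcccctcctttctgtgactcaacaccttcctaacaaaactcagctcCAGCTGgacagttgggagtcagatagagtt

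The ETS core AGGAAGT lay in Cd79a at 55 bases before the start and is held by 9.35% of all 32851 promoters. The EBF motif CCCNNGGGA, a palindrome short of its first base, lay at 1 place in Cd22, where it was matched on both strands, and is held by 6.56%. The full palindrome, which has a T before it, was also matched there and is held by 0.904%. The E-box CAGCTG lay in Fcer2a and is held by 16.3%. TATAAA, held by 13.6%, was found in Bank1 and in another start of Fcer2a. The octamer ATTTGCAT (1.74% of promoters), GAGGAAGT (3.20%), which contains the ETS core, and an NF-kappaB-like motif of GGGA and TCC spaced by 3 bases (4.59%) were not found in these windows of the members.

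B-cell-like cells were found by clustering with the 9 members left out and named from other markers, such as Faim3 and Ly6d. They numbered 53, 33 and 39 in ND mice 1 to 3 and 49, 56 and 21 in HFD mice 1 to 3. They made up 17.2%, 16.5% and 18.6% of the cells of ND mice 1 to 3 and 16.96%, 17.8% and 14.1% of those of HFD mice 1 to 3. The difference of 1.13 percentage points, lower on HFD, was within the spread between mice (exact two-sided permutation p = 0.5, smallest possible 0.1). As HFD minus ND it was -1.90 points without HFD mouse 2 and -0.03 points without HFD mouse 3. HFD mouse 2 stood apart: its 56 B-cell-like cells all lay in the smaller of 2 B cell clusters, which held 62 cells, whereas the larger held none of its cells. Its B-cell-like cells also had the lowest median number of genes at an RPKM (reads per kilobase of exon model, scaled to the mapped reads of the cell) of at least 1, 1446 against 2167 to 3137 in the other mice, and the fewest estimated exon reads, 66927 against 86192 to 187651. The diet differences and the members' mean levels are therefore given with and without it. Immunoglobulin chain genes were not analysed here.

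The signalling chains of the receptor were the most abundant members in every mouse. On the log2(RPKM + 1) scale, Cd79b averaged 11.26 ± 0.40 over the mice (SD, n = 6) and Cd79a 10.94 ± 0.37, and at least 1 RPKM was found in 98.01% and 98.4% of all B-cell-like cells. By mouse, Cd79a stood at 11.29, 11.11 and 10.38 in ND mice and 11.25, 10.62 and 11.01 in HFD mice, and Cd79b at 11.49, 11.12 and 11.56 against 11.41, 10.51 and 11.46. The values of the diets overlapped for both chains, and Cd79b was the higher of the pair in 5 of 6 mice.

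Ms4a1, which encodes CD20, came next with a mean of 7.03 ± 1.09 and was found in 83.7% of cells. Its mouse means were 7.21, 7.32 and 6.80 on ND and 8.69, 5.29 and 6.83 on HFD, so that HFD mice held both the highest and the lowest value. The IgE receptor gene Fcer2a averaged 6.81 ± 1.42, found in 79.3% of cells, with 8.43, 5.60 and 7.34 on ND and 7.20, 4.63 and 7.68 on HFD. Ms4a1 exceeded Fcer2a in 3 of 6 mice, so this pair was not ordered beyond the spread.

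Among the regulators and kinases, the adaptor gene Bank1 averaged 5.69 ± 1.37 and was found in 76.5% of cells. Bank1 stood at 6.32, 6.44 and 6.03 in ND mice and at 6.65, 2.98 and 5.70 in HFD mice, with HFD mouse 2 far below the rest and the other 5 mice within 1 unit of each other. The inhibitory coreceptor gene Cd22 stood at 6.62, 5.76 and 5.03 on ND and at 6.80, 2.83 and 5.66 on HFD (mean 5.45 ± 1.44, 72.1% of cells), again with HFD mouse 1 highest and HFD mouse 2 lowest. The transcription factor gene Pax5 averaged 4.25 ± 1.48, with 6.73 in ND mouse 1 against 3.81 and 3.57 in the other ND mice, and 5.31, 2.82 and 3.25 on HFD. The kinase gene Blk averaged 3.98 ± 0.65 and stood at 5.07, 4.38 and 3.61 on ND and at 3.33, 3.53 and 3.97 on HFD, lowest in HFD mouse 1. Pax5 and Blk were found in 52.99% and 57.4% of cells.

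The complement receptor gene Cr2 was the least abundant member, with a mean of 2.16 ± 0.74. It was found in 37.8% of cells (95% exact binomial interval 31.8 to 44.2%), and in 14.3 to 49.1% by mouse. Its mouse means were 2.44, 2.401 and 2.72 on ND and 2.387, 0.68 and 2.32 on HFD. Without HFD mouse 2, the HFD values lay just under the lowest ND value. Down the order of the members, Cd79a exceeded Ms4a1 and Blk exceeded Cr2 in 6 of 6 mice, whereas Bank1 exceeded Cd22 in 4 and Pax5 exceeded Blk in 2. For Ms4a1 and Pax5 the steps between low values pointed to a shorter transcript than the annotated one, and the rows of Cd22 and Fcer2a join several transcripts with no single annotated length. The place of these 4 genes in the order, and of any pair that includes them, rests on the length the authors used. Without HFD mouse 2 the means of the other 5 mice were 11.41 for Cd79b, 11.01 for Cd79a, 7.37 for Ms4a1, 7.25 for Fcer2a, 6.23 for Bank1, 5.97 for Cd22, 4.53 for Pax5, 4.07 for Blk and 2.45 for Cr2. The order of the members was the same, and the shares of cells at 1 RPKM or more were then 44.6% for Cr2, 58.5 to 89.2% for Pax5, Blk, Cd22, Fcer2a, Bank1 and Ms4a1, and 99.5% for both signalling chains.

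**Figure D1:**
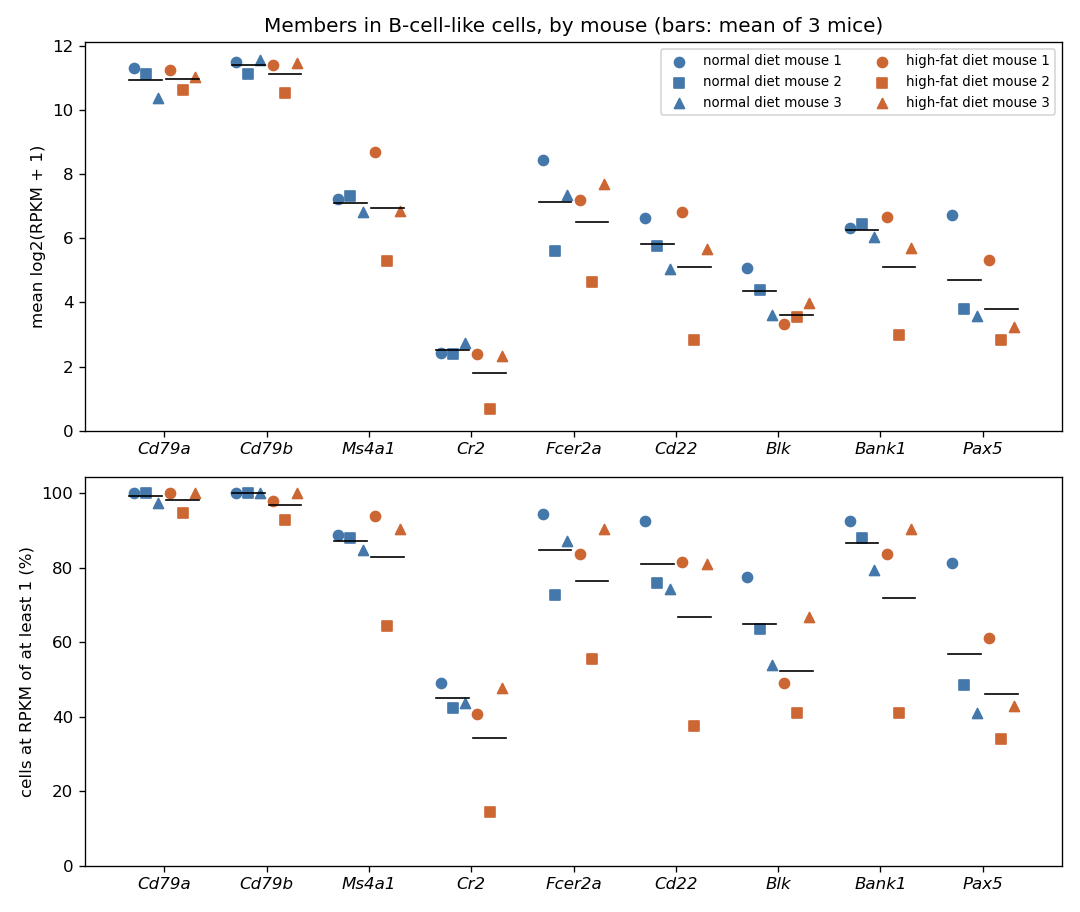
Mean log2(RPKM + 1) (top) and percent of B-cell-like cells with an RPKM of at least 1 (bottom) for each member, 1 point per mouse, with bars for the mean of 3 mice. Cd79a and Cd79b lie highest in every mouse, and HFD mouse 2 (square, orange) has the lowest mean for 7 of 9 members and the lowest share of cells for all 9.

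How HFD mouse 2 differed depended on the measure. It had the lowest share of B-cell-like cells at 1 RPKM or more for 9 of 9 members, from 94.6% for Cd79a and 64.3% for Ms4a1 down to 37.5% for Cd22 and 14.3% for Cr2, which stood at 74.4 to 92.5% and 40.8 to 49.1% in the other mice. In the cells that reached 1 RPKM it was lowest for Cr2 alone. There, Bank1 averaged 7.25 in HFD mouse 2 against 6.30 to 7.95 in the others, and Cd22 7.56 against 6.77 to 8.33. The mean of the untransformed RPKM was likewise lowest in this mouse only for Cr2, and was highest in it for Cd79a, Cd79b, Fcer2a and Blk. The lower log means of this mouse thus went with fewer cells holding a member.

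Because depth differed, shares were also computed at an equal depth of 30000 reads for the 5 members whose transcript length could be recovered. At that depth Bank1 was expected in 34.8% of the B-cell-like cells of HFD mouse 2 (40.7% before thinning) and in 74.1 to 83.9% of the other mice, and Cr2 in 10.9% (14.8%) against 37.3 to 44.8%. Cd79b was expected in 87.7% against 97.96 to 100%. Blk, at 39.7%, was close to HFD mouse 1 at 41.7% and ND mouse 3 at 42.2%. Only the number of reads was matched, not the number of genes per cell, and the part of library quality in these shares was not tested.

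The diet comparison asked whether the receptor genes changed in B cells with diet. None of the 9 members passed an adjusted p of 0.05 (limma on mouse means, Benjamini-Hochberg over 3625 genes, adjusted p = 0.9997 for each), and 0.0% of all genes tested were called. At an unadjusted p under 0.05, 0 of 9 members and 3.61% of the genes tested passed. Without HFD mouse 1, Bank1 (-1.93, limma p = 0.0131) and Pax5 (-1.67, p = 0.0441) were under an unadjusted 0.05, with an adjusted p of 0.919 for both. In that fit 5.35% of all genes tested were under an unadjusted 0.05. By the exact two-sided permutation test on single members, which cannot go below 0.1 here, p was 0.1 for Cr2 and 0.2 to 1 for the others. In limma's fit the difference, HFD minus ND, ran from -1.16 for Bank1 (95% interval -2.67 to 0.35) to 0.03 for Cd79a (-1.01 to 1.08). It was -0.91 for Pax5, -0.74 for Blk, -0.72 for Cr2, -0.71 for Cd22, -0.62 for Fcer2a, -0.26 for Cd79b and -0.17 for Ms4a1. The intervals were wide enough to hold a change of more than 1 log2 unit for each gene, so these data do not show that the diets were alike.

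Below 0 lay 8 of 9 members, with a median of -0.71, beside 75.9% of all genes tested with a median of -0.30. Where RPKM was averaged over cells before the logarithm, 4 of 9 members lay below 0, and Bank1 stood at -0.11. Without HFD mouse 2 the values were 4 of 9 members and a median of all genes of -0.01, and the difference was -0.09 for Bank1, 0.65 for Ms4a1, 0.42 for Cd22, 0.31 for Fcer2a, 0.20 for Cd79a, 0.043 for Cd79b, -0.17 for Cr2 and -0.42 for Pax5. For Blk it was -0.71 (95% interval -1.82 to 0.41). With all 6 mice, the difference of Blk was -0.74 in the main fit and 0.14 where RPKM was averaged before the logarithm. It was -0.09, also with all 6 mice, in B-cell-like cells picked by at least 6 markers at 10 RPKM, a gate chosen after the data were seen. The ND and HFD mice did not overlap for 1 of 9 members, Cr2, where 9.41% of genes tested had lower HFD values without overlap.

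**Figure D2:**
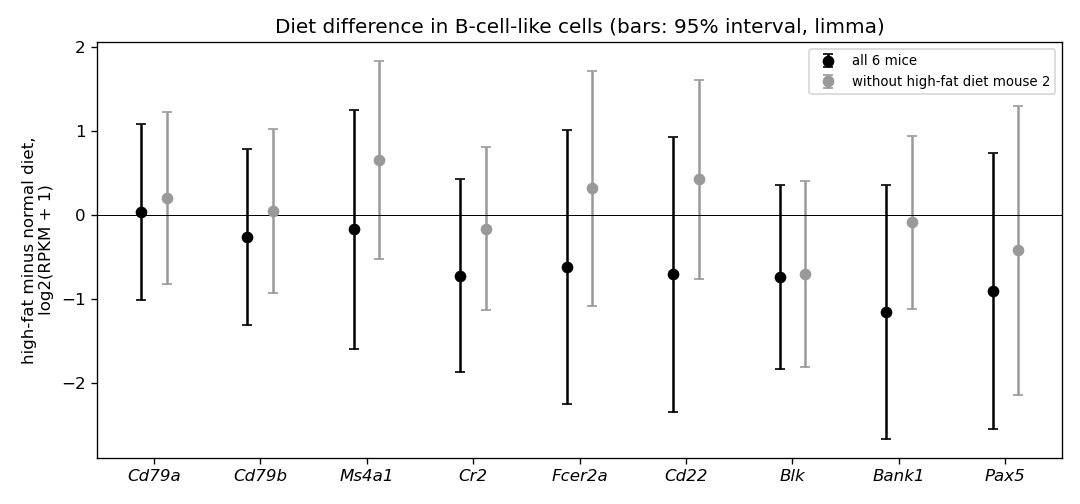
Difference between HFD and ND mice in B-cell-like cells on the log2(RPKM + 1) scale, with its 95% interval from limma, for all 6 mice (black) and without HFD mouse 2 (grey). Each interval includes 0, and the differences of Cd22, Bank1 and Fcer2a move most when that mouse is left out.

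Most B-cell-like cells held several members together. At 1 RPKM or more, 22 cells (8.76%) held all 9 and 61 held 8, and 14 cells held 3 or fewer, of which 12 came from HFD mouse 2. The median number per cell was 8 in ND mouse 1, 5 in HFD mouse 2 and 7 in the other mice. From cell to cell the members were weakly correlated: within mice, the mean Pearson correlation of 36 pairs ranged from -0.16 to 0.20, with a median of 0.05. Cd79a with Pax5 and Cd79b with Blk were the pairs above 0 in 6 of 6 mice, and Cr2 with Blk was below 0 in all 6. Cells of a mouse share its depth, and values this low in sparse data are given only as a description.

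High CR2 with low CD23 is a known trait of marginal zone B cells, and CD23 one of follicular B cells. Cr2 and Fcer2a were found together in 76 cells, Cr2 alone in 19, Fcer2a alone in 123 and neither in 33. Fcer2a was thus found in 76 of 95 cells with Cr2 and in 78.8% of cells without it. This near equality rested on HFD mouse 2, where 23 of 56 cells held neither. Without that mouse Fcer2a was found in 70 of 87 cells with Cr2 (80.5%) and in 98 of 108 cells without it (90.7%), and its share was lower among cells with Cr2 in 4 of the other 5 mice.

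The other genes of the pathway were described from lists chosen with earlier results known, and 0 genes of any list were called for diet in either direction. Of the coreceptor complex, Cd81 averaged 4.93 ± 1.24 in B-cell-like cells. All 16 relay genes below the receptor were tested, led by the adaptor gene Blnk (4.95 ± 1.15), the kinase genes Syk (4.56 ± 1.31) and Lyn (4.35 ± 1.08), and Prkcb (3.87 ± 1.15). The difference was below 0 for 15 of these 16, with a median of -0.27, close to that of all genes, and without HFD mouse 2 for 7 of 16, with a median of 0.07. Of 11 genes of receptor inhibition 9 were tested, and Ptpn6, which encodes the phosphatase SHP-1, was the highest at 6.12 ± 1.06. Ptpn6 was the 1 gene of this list with an unadjusted p under 0.05, beside 3.61% of all genes tested (limma, -1.50 ± 0.55 SE, p = 0.0147, adjusted p = 0.9997). Its lowest mouse was HFD mouse 2, at 4.45 against 5.34 to 7.41 in the others, and without it the difference of Ptpn6 was -1.05 (limma, p = 0.0556). Siglecg (5.44 ± 0.97), Dok3 (5.10 ± 0.84) and Fcgr2b (4.96 ± 0.69) followed. Fcgr2b and Cd81 were higher over the cells outside the class, at 6.25 and 5.62, than within it. Without HFD mouse 2, the listed genes under an unadjusted 0.05 were Ccr7 (1.58, limma p = 0.00863) and 1 relay gene (-1.12, p = 0.0351). This stood beside 2.95% of all genes tested, and neither gene was called.

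All 12 B lineage transcription factor genes were tested, with Spib at 4.94 ± 0.97, Pou2af1 at 4.82 ± 0.97, Irf8 at 4.64 ± 0.96 and Tcf3 at 3.94 ± 1.10. Among genes of B cell subsets, those of follicular cells were high: the homing receptor genes Ccr7 (7.01 ± 1.41) and Cxcr5 (5.82 ± 1.18). Cxcr5, Blnk, Pou2af1 and Vpreb3 were among the markers that named the B-cell-like class. Their levels in it are therefore no separate evidence of what these cells are. The marginal zone list was low, with 1 of 5 measured genes tested, Dtx1 (1.83 ± 0.37), and Cd9, Cd1d1 and Myof at 0.998, 0.91 and 0.16. S1pr3 was listed at 0 in all B-cell-like cells. None of the 5 B-1 genes passed the filter, the highest being Zbtb20 at 0.83, Spn at 0.64, Cd5 at 0.57 and Bhlhe41 at 0.24. Of the plasma cell list, Mzb1 (4.30 ± 0.67) and Xbp1 (2.06 ± 0.42) passed, whereas Sdc1 was at 0.33 and Igj was listed at 0 in all mice but ND mouse 2 (1.35). Of the cycling and germinal centre list Bcl6 (1.64 ± 0.48) passed, with S1pr2, Top2a and Mki67 at 0.23, 0.11 and 0.10, and of the transitional list Vpreb3 (3.59 ± 0.73), with Cd93 at 0.53.

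Over all 1470 cells, genes whose pattern was among the most like the mean of the members were Faim3 (r = 0.81), H2-Ob (0.78), H2-DMb2 (0.75) and Ly6d (0.71). Faim3, H2-Ob and Ly6d were among the markers that named the B-cell-like class.

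Outside the B-cell-like class, every member was lower in each of 8 other classes, in every mouse with at least 3 cells of the class. The NK cells were joined with the T cells, since their cluster had no NK marker among its 10 leading genes and 80 of its cells came from HFD mouse 2. Mean levels of Cd79a in the other classes ran from 1.93 to 2.77, of Cd79b from 2.69 to 5.58 and of Ms4a1 from 0.80 to 1.23, and Cr2 did not exceed 0.21. Nevertheless 1 RPKM or more of Cd79a was found in 55.6 to 67.2% of cells of every other class, of Cd79b in 66.7 to 85.7%, of Ms4a1 in 22.2 to 47.6%, of Fcer2a in 25.9 to 44.4% and of Cd22 in 29.6 to 48.9%. Bank1 reached 20% of cells in 7 of 8 classes (19.05 to 47.6%), Pax5 in 5 (4.76 to 33.3%) and Blk in 3 (11.1 to 28.6%). Cr2 was at 0 to 11.1%. In T- and NK-cell-like cells, which should lack the receptor, Cd79a was found in 61.1% of cells (95% exact binomial interval 55.8 to 66.2%), at a median depth of 135177 reads against 112458 in B-cell-like cells, so shares of this size are not read as expression, and their source was not tested. At equal depth Cd79a was expected in 23.5% of T- and NK-cell-like cells. Before thinning, their median was 1 read, against 254.5 to 728.5 reads in the B-cell-like cells of the 6 mice.

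**Figure D3:**
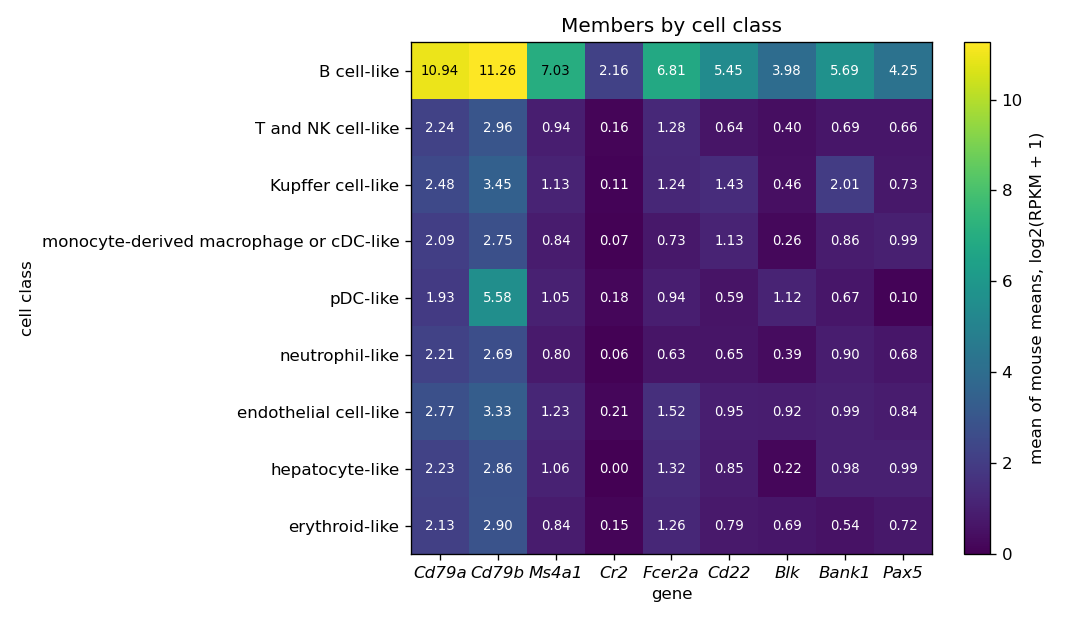
Mean of mouse means of log2(RPKM + 1) for each member (columns) in each cell class (rows). All 9 members are highest in B-cell-like cells, and the highest value elsewhere is that of Cd79b in pDC-like cells (5.58). Outside B-cell-like cells Bank1 is highest in Kupffer-cell-like cells (2.01).

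Some genes stood higher in a class outside B than in most of the others, and these were picked out after their values were seen. Cd79b in plasmacytoid dendritic cell (pDC)-like cells averaged 5.58 ± 0.997 in the 4 mice with at least 3 such cells, at 5.17 in ND mouse 1 and at 6.96, 4.62 and 5.57 in HFD mice 1 to 3. It was above each other class outside B in every mouse that could be compared, and reached 10 RPKM in 14 of 21 cells (66.7%, interval 43.03 to 85.4%). At equal depth it was expected in 59.0% of pDC-like cells and in 27.5 to 44.01% of the other classes. Cd79a did not share this, at 1.93 in the same cells.

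In Kupffer cells, the resident liver macrophages, Bank1 averaged 2.01 ± 0.67, with 2.58, 2.14 and 1.96 in ND mice and 2.46, 0.71 and 2.21 in HFD mice. It was above T- and NK-cell-like cells (0.69) in 6 of 6 mice above endothelial-cell-like cells (0.99) in 5 of 6 and above hepatocyte-like cells in 3 of 4. Bank1 reached 10 RPKM in 24.9% of Kupffer-cell-like cells (interval 19.4 to 31.01%) and in 2.25% of T- and NK-cell-like cells (0.978 to 4.39%), and at equal depth was expected in 32.3% against 8.90%. By mouse, the share at 10 RPKM ran from 0.0 to 6.90% in T- and NK-cell-like cells. In Kupffer-cell-like cells it ran from 7.41% (HFD mouse 2) to 30.8%. Cd22 in the same cells averaged 1.43 ± 0.80, above T- and NK-cell-like cells in 6 of 6 mice but above neutrophil-like cells in 3 of 5. Blk in endothelial-cell-like cells (0.92 ± 0.43) exceeded T- and NK-cell-like cells in 6 of 6 mice and Kupffer-cell-like cells in 5 of 6, but pDC-like cells, which had the highest mean (1.12), in 2 of 4.

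The signal outside the class varied by mouse. Cd79a was found at 1 RPKM or more in 87.5%, 56.3% and 64.3% of the other cells of ND mice 1 to 3 and in 57.5%, 40.7% and 82.03% of HFD mice 1 to 3. ND mouse 1 and HFD mouse 3 were the 2 highest for Cd79b, Ms4a1, Cd22, Blk, Bank1 and Pax5 as well. They also had the most genes per cell over all their cells, with medians of 3131 and 3163 against 1595 to 2608. The part of this in the shares was not tested. As a share of the level in B-cell-like cells of the same mouse, the mean RPKM of Cd79a outside the class was 0.23 to 2.63%, and of Bank1 2.45 to 11.7%.

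**Figure D4:**
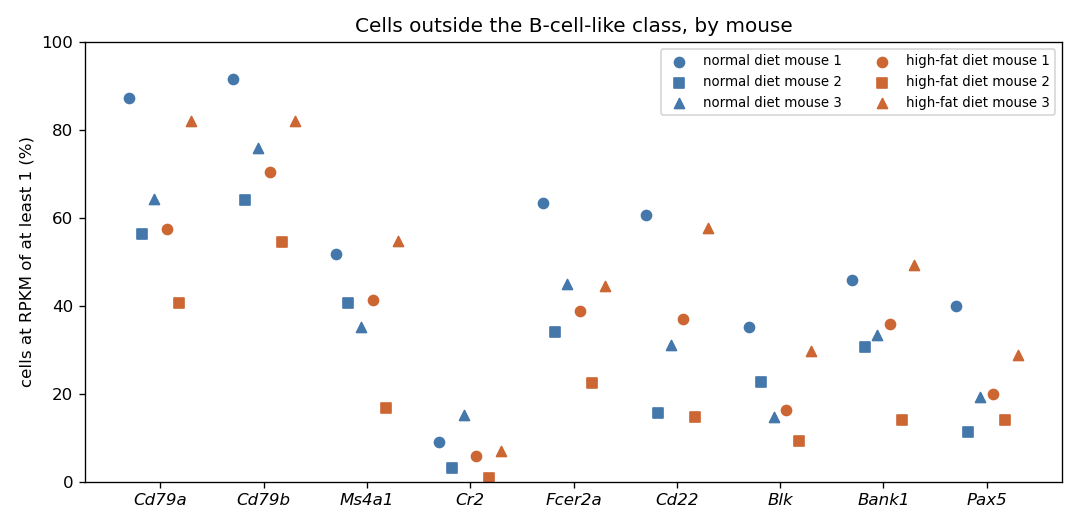
Percent of cells outside the B-cell-like class with an RPKM of at least 1, for each member, 1 point per mouse. ND mouse 1 (blue circle) is highest for Cd79a at 87.5%, and HFD mouse 2 (orange square) lowest at 40.7%.

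Members were also found together in cells of other classes. At least 3 members at 10 RPKM or more were held by 17.6% of the 1219 such cells (95% exact binomial interval 15.5 to 19.8%), against 95.6% of B-cell-like cells. The share was 29.7% in Kupffer-cell-like, 21.01% in endothelial-cell-like, 19.4% in hepatocyte-like and 7.89% in T- and NK-cell-like cells. By mouse it was 36.9%, 7.19% and 23.98% on ND and 7.08%, 4.65% and 29.7% on HFD. Of the cells that held 3 or more, 94 came from ND mouse 1, 38 from HFD mouse 3 and 82 from the other 4 mice. Cd79b and Cd79a were present in 92.5% and 91.6% of them, and Cr2 in 0.935%. At least 5 members were held by 50 cells, 35 of them endothelial-cell-like and 12 Kupffer-cell-like. Whether free RNA, attached cells or expression gave these counts was not tested.

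**Figure D5:**
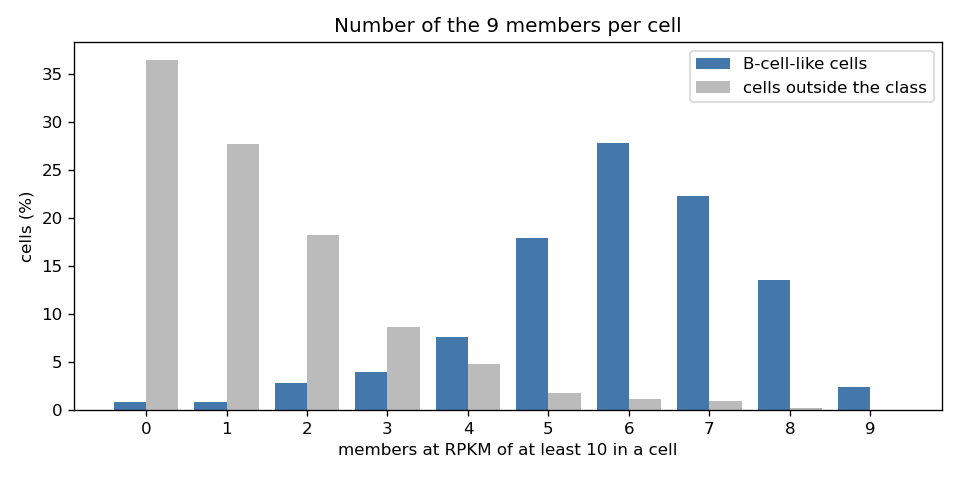
Percent of B-cell-like cells (blue) and of cells outside the class (grey) by the number of members at an RPKM of at least 10. Most cells outside hold 0 to 2 members, and most B-cell-like cells hold 5 to 8.

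Markers of other cell types were found within B-cell-like cells too, and 7 of 13 such sets were lowest in HFD mouse 2. The summed log2 level of the 12 measured Kupffer cell markers was 30.05 to 34.5 on ND and 12.8 to 46.2 on HFD, lowest in HFD mouse 2 and highest in HFD mouse 3, against 109.5 in Kupffer-cell-like cells, and 11 of 12 were found in at least 20% of B-cell-like cells. That of the 10 T cell markers was 14.3 to 15.9 on ND and 7.01 to 14.4 on HFD, with 7 of 10 found. The sum of the 15 endothelial markers, all found in at least 20% of B-cell-like cells, was 34.8 to 46.3 on ND and 36.5 to 40.6 on HFD, lowest in ND mouse 2. NK and pDC marker sums were also not lowest in HFD mouse 2. The sum of the 11 measured B cell markers was 63.1 to 74.3 on ND and 50.5 to 71.9 on HFD, again lowest in HFD mouse 2. Their part in the members' levels was not tested.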

How the data were processed

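RPKM values of single NPCs were deposited by the authors, computed with rpkmforgenes on RefSeq genes after alignment to mm10 with STAR and after their filters and doublet removal. Each of the 1470 columns was matched to its mouse by its label, and 0 columns were left without a sample. Members and lists were chosen with earlier results of these data known. Named genes were the 9 members, at most 4 genes from each list by mean level, the 5 genes of most like pattern, and members found in at least 20% of a class. S1pr3 of the marginal zone list was named beyond this rule. Some of the genes so named are not reported here.

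Depth per cell was estimated from the steps between low RPKM values. On 40 simulated cells it was recovered within 2% in 87.5%. Of the low values, 81.3% lay within 0.1 read of a whole number. The exact binomial intervals of shares of cells cover counting error only. The intervals of the diet differences come from limma on mouse means and cover the spread between mice.

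The 1000 genes that varied most (at least 1 on the log2 scale in at least 10 cells, members left out) were reduced to 20 principal components, and cells were grouped into 16 clusters by spectral clustering of 15 nearest neighbours (scikit-learn 1.9.0). The genes were centred and not scaled, which was decided after clusters were seen, as was joining T and NK cells. Diets were compared with limma 3.58.1 in R 4.3.3 on the mean log2(RPKM + 1) per mouse (pseudocount 1), with no trend, where a gene averaged 1 or more. Differences on this scale understate the change of low genes. On simulated data with 200 of 3625 genes shifted by 3 log2 units, 99% were called, with 6 calls among genes not shifted. Shifts as small as the members' differences were not simulated. P-values measure the spread between mice. For the mice, same-numbered animals of the diets are not said to be paired.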

Additional observations from a re-analysis of the deposited data

How the results depend on the processing

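The diet comparison called 0 genes under 18 of 19 alternatives. With a mean-variance trend it called 1, Rn45s, a ribosomal RNA precursor named after its value was seen. Leaving out a mouse gave 0 to 0 calls. At an unadjusted p under 0.05 the alternatives gave 17 genes (of 733 tested, at a mean of at least 3) to 797 (of 14129, with no filter).

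With the mouse number as a replicate block 0 genes were called (6.54% at an unadjusted p under 0.05). Same-numbered mice correlated at 0.205, 0.078 and 0.142 in their deviations from the group means, not above 0.1 for each pair, so they were not taken as paired. Each mouse correlated best with its own number, a hint from the data only.

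No member's difference passed an adjusted p of 0.05 under any alternative. At an unadjusted p under 0.05, Bank1 and Pax5 passed without HFD mouse 1, beside 5.35% of all genes tested. Bank1 passed with the second gate, beside 4.34%. Averaging RPKM before the logarithm turned Cd79b to 0.056, Fcer2a to 0.068, Cd22 to 0.34 and Blk to 0.14, and gave -0.11 for Bank1. Cd79a turned to -0.17 with a second marker gate and -0.11 in cells with at least 1500 genes. Leaving out each mouse gave -0.24 to 0.21 for Cd79a, -0.43 to 0.043 for Cd79b, -1.05 to 0.65 for Ms4a1, -1.38 to 0.31 for Fcer2a, -1.56 to 0.42 for Cd22, -1.93 to -0.09 for Bank1, -1.02 to -0.17 for Cr2, -1.12 to -0.39 for Blk and -1.67 to 0.11 for Pax5. All 9 members stayed highest in B-cell-like cells under 12 alternatives.

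The planned gate (at least 4 B cell markers, fewer than 3 of any other class) kept 5 cells, so it was not run for the diet comparison. With it the number of cells outside the gate holding 3 members was 449, which includes the B-cell-like cells that the gate dropped. The difference in the share of B cells turned to 0.0114 percentage points, resting on those 5 cells. The second gate (25 cells of HFD mouse 2 and 13 to 44 of the others) and the scaled clustering were chosen after seeing the data, as were the alternatives for HFD mouse 2. The number of cells outside was 436 with 2 members and 779 with 3 at 1 RPKM. HFD mouse 2 was lowest for 1 of 9 members by mean RPKM, and leaving out ND mouse 1 and HFD mouse 3 left 82 cells outside.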
